A study of Mus musculus with 6 samples.

Results

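The genes described here are 10 antiviral effectors, proteins that act on viruses or on the nucleotides that viruses need: Rsad2, Cmpk2, Mx1, Mx2, Bst2, Samhd1, Isg20, Apobec3, Ifitm2 and Ifitm3. They were taken by gene name from the 54532 genes of the count table, and each name had a single line in it. The study sequenced RNA from N9 microglia, an immortalized mouse brain line, with 3 libraries from cells stimulated with LPS (lipopolysaccharide, a component of the gram-negative bacterial outer membrane) at 1 µg/ml for 6 h and 3 libraries from unstimulated control cells. N9 is a single immortalized line in culture, and no other allele, agent or treatment is named for either group. Nothing in the labels says that the 3 libraries of a group came from separate cultures, so the p-values below measure the spread between these samples, which may be technical.

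Most of these genes are known as interferon-stimulated genes. Type I interferon binds a receptor made of IFNAR1 and IFNAR2, and the kinases JAK1 and TYK2 then activate the factor ISGF3, which binds the interferon-stimulated response element (ISRE) in promoters. In microglia and macrophages LPS is known to reach the same genes through TLR4 and the adaptor TRIF (Ticam1), which leads to interferon beta. Viperin (Rsad2) turns CTP into an analogue that ends viral RNA chains, and Cmpk2 is a mitochondrial kinase of pyrimidine nucleoside monophosphates. Mx proteins are dynamin-like GTPases, IFITM proteins hinder fusion of viral and cellular membranes, and tetherin (Bst2) holds budding virions at the cell surface.

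The promoter sequences are shown because they differ between members in a way that can be read by eye, namely in the core letters of the ISRE, which are GAAA, any pair of bases and GAAA again, searched on both strands in windows from 250 bases before to 50 bases after each RefSeq start (GRCm38.p6). Of 32851 mouse windows, 3.44% held this core, and counted by gene, 3.99% of 27025 genes held it in any window. The table gave 11 windows for 8 members, and 5 of these genes held it, each in 1 window. Sequences run in the direction of the gene, and capitals mark the core, which reads as TTTC, a pair of bases and TTTC where it lies on the opposite strand. Each stretch but that of Apobec3 and that of Ifitm3 ends before the first annotated start, and those are a site of 30 bases and a site of 27 bases.
Rsad2, chr12:26456453-26456702, minus strand: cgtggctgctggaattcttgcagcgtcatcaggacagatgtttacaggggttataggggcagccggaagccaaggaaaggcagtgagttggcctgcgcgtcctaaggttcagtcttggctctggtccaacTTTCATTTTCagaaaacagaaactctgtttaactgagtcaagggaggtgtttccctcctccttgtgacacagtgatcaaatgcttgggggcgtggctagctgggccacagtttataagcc
Cmpk2, chr12:26468965-26469203, plus strand: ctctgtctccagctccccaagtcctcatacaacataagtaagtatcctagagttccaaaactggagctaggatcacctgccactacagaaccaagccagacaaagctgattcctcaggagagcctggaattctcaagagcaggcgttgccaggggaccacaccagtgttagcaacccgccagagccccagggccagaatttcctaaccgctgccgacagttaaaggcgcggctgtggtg
Bst2, chr8:71537473-71537722, minus strand: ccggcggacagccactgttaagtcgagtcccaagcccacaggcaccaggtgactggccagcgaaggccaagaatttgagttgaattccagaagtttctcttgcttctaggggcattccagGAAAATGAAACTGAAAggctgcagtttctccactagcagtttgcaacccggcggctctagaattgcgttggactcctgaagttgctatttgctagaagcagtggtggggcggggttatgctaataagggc
Ifitm2, chr7:140955988-140956211, minus strand: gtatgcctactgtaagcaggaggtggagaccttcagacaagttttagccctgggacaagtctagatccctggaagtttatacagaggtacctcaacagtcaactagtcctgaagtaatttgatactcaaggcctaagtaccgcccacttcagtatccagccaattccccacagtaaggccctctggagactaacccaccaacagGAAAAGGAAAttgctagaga
Apobec3, chr15:79892258-79892287, plus strand: catcagttagTTTCCCTTTCtctttgcgat
Ifitm3, chr7:141010716-141010742, minus strand: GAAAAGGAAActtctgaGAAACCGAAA

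The core of Rsad2 lay 120 to 111 bases before the start, and Bst2 had overlapping cores whose first bases lay 130 and 124 bases before it. Ifitm2 carried its core 46 to 37 bases before the start. The 2 cores of Ifitm3 lay after the start, in the 5′ UTR of its first exon. The Apobec3 site lay 140 to 131 bases before a RefSeq start that is inside the gene as the count table draws it, since transcripts that start further upstream run through it. Cmpk2, Samhd1 and Isg20 had no such core in their windows. The letters of a GAS element (TTCNNNGAA) were in the windows of Ifitm3, Bst2, Samhd1 and Isg20 and in 8.3% of all windows (9.55% of genes). A kappa B site, bound by NF-kappa B, was matched for Ifitm3, Bst2, Isg20 and Apobec3 and in 8.46% of all windows (9.55% of genes). In Bst2 the GAS letters overlapped both the kappa B letters and an ISRE core, and in Ifitm3 they overlapped an ISRE core. Such matches describe letters in these windows and not bound sites. Of 20 other interferon-induced effectors with a window, 12 held the ISRE core.

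LPS-stimulated cells held more transcript of 9 of the 10 members, and the members fell into 3 ranges of size. Rsad2, Cmpk2, Mx1, Mx2 and Isg20 were up-regulated by log2 fold changes of 4.77 to 7.40 and were differentially expressed genes (DEG, by the study's thresholds of 1.5 on the log2 scale and 0.05 for the Benjamini-Hochberg adjusted p, here in edgeR's quasi-likelihood test). Bst2, Ifitm3 and Samhd1 rose by log2 fold changes of 0.98 to 1.22, and Apobec3 and Ifitm2 differed by 0.26 and 0.16. Of the 10 members, all were among the 12296 genes with enough counts to be tested, and 5 were DEG that rose, against 2.4% of all tested genes. An adjusted p under 0.05 with a higher level in LPS was found for 9 members, against 18.7% of tested genes, and 0 members had a lower level in LPS (0 also at an unadjusted p and in DESeq2), against 15.7%. For 9 members every LPS library lay above every control library in CPM, counts scaled to the total of each library, a relation found in 23.8% of tested genes (8 members without the TMM factors of the scaling). The median log2 fold change of the members was 2.99, and that of all tested genes was 0. With library totals alone 1520 tested genes were higher and 3342 lower, against 2294 and 1927 with TMM factors, and 8 members were higher and 5 were DEG.

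**Figure D1:**
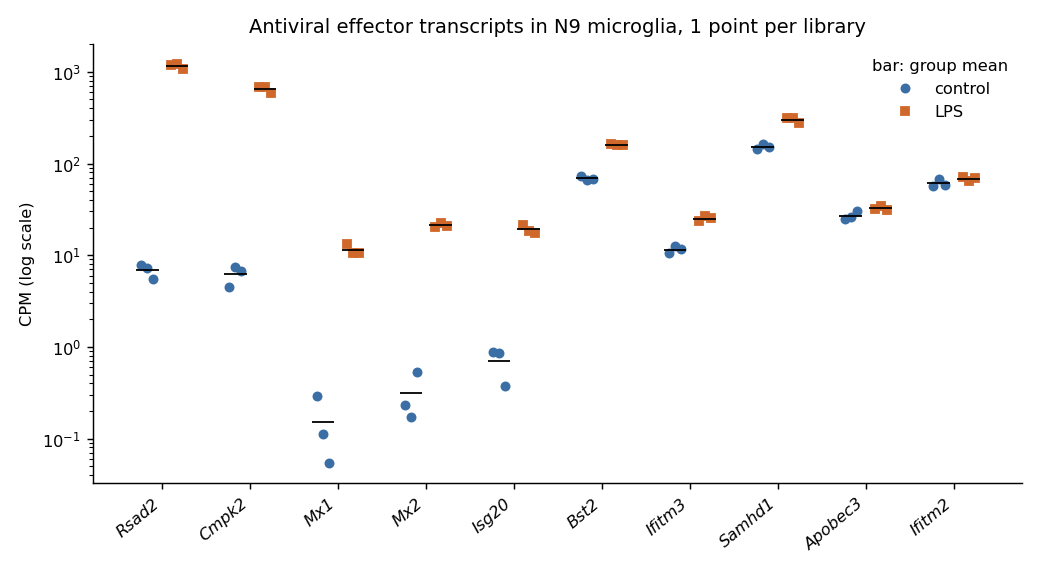
CPM on a log axis for each member, with 1 point per library, circles for 3 control and squares for 3 LPS libraries, and a bar at the group mean. The groups are far apart for Rsad2, Cmpk2, Mx1, Mx2 and Isg20, and the points of Ifitm2 overlap.

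Total counts per library lay between 16363767 and 17956772, and 3 counts corresponded to between 0.161 and 0.19 CPM. Libraries of a group differed from each other by more than sampling noise, with a chi-square of 3.55 to 7.71 per gene for each pair. Of 12 listed microglia and macrophage markers, 9 could be tested, and in LPS cells 3 were higher at an adjusted p under 0.05 (Csf1r, Ptprc and Spi1, log2 fold changes 0.16, 0.24 and 0.58), 1 was lower (Trem2, from 138 to 96.2 CPM, log2 fold change -0.52) and 5 were not called. P2ry12 (0.264 and 0.269 CPM in control and LPS cells), Aif1 and Fcrls were too low to be tested. T and B lymphocyte markers summed to at most 0.0633 CPM, with 5 of 7 genes at 0 in each library. Other marker lists held genes that differed: of 7 neuron markers Tubb3 was a DEG (4.05 to 12.9 CPM, log2 fold change 1.67) and Map2 was lower (-0.41), and the 5 endothelium markers summed to 0.34 to 0.914 CPM in control and 1.65 to 2.32 CPM in LPS libraries, with Kdr a DEG (log2 fold change 2.24) and Cldn5 at 0 throughout. Of the astrocyte markers 1 was higher and 1 lower, and of the oligodendrocyte and plasmacytoid dendritic cell markers 1 each was lower. The part of these transcripts in the members' differences was not tested. Control replicates 2 and 3 stood apart by hepatocyte transcripts: the 12 markers other than Hp gave sums of 8, 280 and 478 counts in the control libraries, in order of replicate number, and of 5, 4 and 12 with LPS. Hp, the only marker of that list that was tested, was abundant in each library and higher with LPS (50.7 to 127 CPM, log2 fold change 1.32), and with it the list summed to 891, 1156 and 1427 counts in control and 1970, 2119 and 2087 counts in LPS libraries. With both of these control libraries left out the members gave 5 DEG and 10 with an adjusted p under 0.05, and Rsad2, Cmpk2, Mx1, Mx2 and Isg20 were again the DEG. In bulk RNA, fewer cells with a transcript and less transcript per cell cannot be told apart.

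Rsad2 (ENSMUSG00000020641, chr12:26442746-26456452 on the minus strand of mm10) was counted 134, 129 and 103 times in control cells and 18720, 20008 and 17645 times after LPS, in the order of replicates 1, 2 and 3 that is kept for each gene. No library of one group came near the other. Viperin transcript went from 6.89 ± 1.2 to 1160 ± 76.3 CPM (mean ± SD, n = 3 each), a log2 fold change of 7.40 (SE 0.09, edgeR adjusted p = 1.65e-16). That is a 169-fold difference with a 95% interval of 148 to 193, and it was rank 6 by log2 fold change among the tested genes.

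Cmpk2 (ENSMUSG00000020638, chr12:26469204-26479837 on the plus strand) is the direct neighbour of Rsad2, with 12.8 kb between the genes and transcription running away from each other. Its counts were 78, 131 and 126 in control cells against 10825, 11267 and 9597 in LPS cells. Groups were again far apart, and control replicate 1 was the lowest control library, where for Rsad2 it was the highest control library. Cmpk2 rose from 6.25 ± 1.5 to 652 ± 59 CPM, a log2 fold change of 6.70 (SE 0.11, edgeR adjusted p = 2.7e-15), 104-fold with an interval of 87.7 to 123. Of the genes within 200 kb of either one, the other was the only one that could be tested.

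The log2 ratio of Rsad2 to Cmpk2 counts within a library was 0.78, -0.02 and -0.29 in control cells against 0.79, 0.83 and 0.88 in LPS cells. LPS libraries thus shared nearly 1 ratio, and control replicate 1 lay just below them. The mean ratio was higher by 0.68 in LPS, and the exact two-sided permutation test gave p = 0.1, the smallest that 3 against 3 libraries allow. The difference was 0.45 without control replicate 3 and 0.99 without control replicate 1. The lower ratios were those of control replicates 2 and 3, which stood apart by hepatocyte transcripts, and a link was not tested. With both left out, the log2 fold changes of Rsad2 and Cmpk2 were 7.21 and 7.16. Together these 2 genes held 3.7% to 4.2% of the members' counts in control libraries and 72.9% to 74.6% in LPS libraries. Rsad2 made up 54.5% of the summed rise in CPM over the members and Cmpk2 30.5%. These shares are of counts and CPM not scaled to gene length, so longer genes weigh more in them.

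Mx1 (ENSMUSG00000000386, chr16:97447035-97462907, minus strand) was close to absent in control cells, with 5, 2 and 1 counts, and reached 207, 176 and 175 counts in LPS cells. Control replicates 2 and 3 were at or under 3 counts. The log2 fold change was 6.19 (SE 0.30, edgeR adjusted p = 5.16e-10), and it rests on few control counts, since it ranged from 5.78 to 6.98 as 1 library was left out. Without control replicate 1 the remaining control libraries were at or under the floor of 3 counts per library, and the LPS level was then at least 69.3-fold higher. Without control replicates 2 and 3 the log2 fold change was 5.26, and with a prior count of 2 and all libraries it was 5.44. Mean levels were 0.153 ± 0.124 CPM in control and 11.5 ± 1.4 CPM in LPS cells.

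Mx2 (ENSMUSG00000023341, chr16:97535308-97560900, plus strand) had 4, 3 and 10 counts in control and 320, 368 and 344 counts in LPS cells. Its groups did not overlap, and control replicate 3 was the highest of the controls. The level rose from 0.314 ± 0.196 to 21.2 ± 1.11 CPM, a log2 fold change of 6.03 (SE 0.22, edgeR adjusted p = 1.3e-11). It ranged from 5.73 to 6.66 as 1 library was left out, and the highest value was without control replicate 3. Mx1 and Mx2 lie 72.4 kb apart, and RefSeq lists both as transcribed pseudogenes in the reference strain, while the count table calls Mx1 protein-coding and Mx2 a polymorphic pseudogene. The counts therefore speak of transcripts and not of protein. The log2 ratio of Mx1 to Mx2 was 0.31, -0.56 and -3.17 in control and -0.63, -1.06 and -0.97 in LPS libraries, which overlapped, with a mean higher by 0.25 in LPS (exact two-sided permutation p = 1.0). Without control replicate 3 that difference was -0.77. How reads that fit more than 1 family member were counted is not given in the sources used here, so the split between Mx1 and Mx2, and that between Ifitm2 and Ifitm3, is uncertain.

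Isg20 (ENSMUSG00000039236, chr7:78913424-78920396, plus strand) encodes an exonuclease that degrades single-stranded RNA. Counts were 15, 15 and 7 in control and 335, 303 and 290 in LPS cells, with control replicate 3 the lowest and no overlap. Its level went from 0.7 ± 0.281 to 19.1 ± 1.87 CPM, a log2 fold change of 4.77 (SE 0.20, edgeR adjusted p = 1.01e-10) or 27.3-fold. Aen, the exonuclease gene beside it, had a log2 fold change of 0.25 (SE 0.06, edgeR adjusted p = 0.00415).

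**Figure D2:**
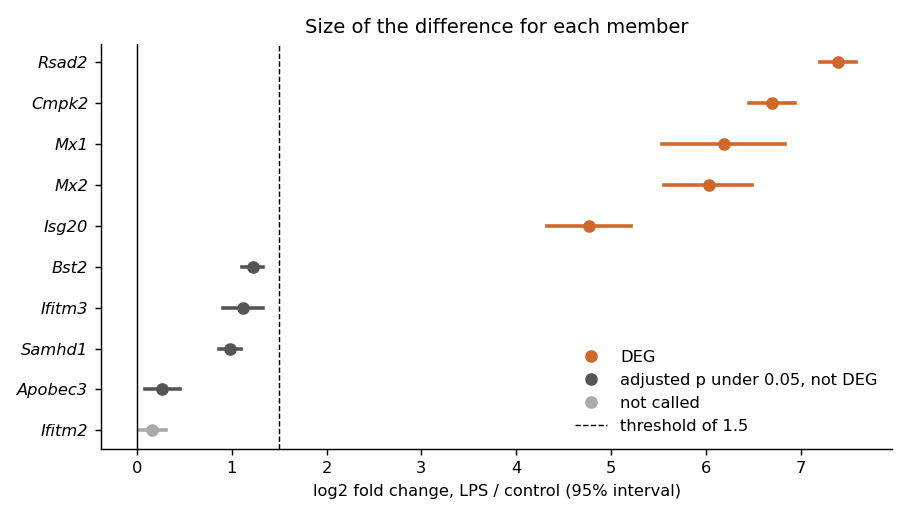
Log2 fold change of LPS over control for each member, with points for estimates, lines for 95% intervals, a dashed line at 1.5 and colour for the call. The 5 DEG lie between 4.77 and 7.40, no member lies between 1.22 and 4.77, and the interval of Ifitm2 starts at 0.02.

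Bst2 (ENSMUSG00000046718, chr8:71534255-71537456, minus strand) was already abundant, with 1266, 1163 and 1267 counts in control libraries, and had 2571, 2650 and 2627 counts in LPS libraries. The LPS libraries were nearly alike and all above the controls. Tetherin transcript rose from 69.3 ± 4.12 to 161 ± 1.51 CPM, a log2 fold change of 1.22 (SE 0.05, edgeR adjusted p = 6.27e-11) or 2.33-fold. The interval of 1.11 to 1.33 lies below the DEG threshold of 1.5. Of 22 tested genes within 200 kb, 1 was higher (Slc27a1, log2 fold change 0.24, SE 0.05) and 8 were lower at an adjusted p under 0.05.

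Samhd1 (ENSMUSG00000027639, chr2:157097533-157135265, minus strand) encodes a phosphohydrolase that breaks down dNTP and so starves reverse transcription. It had 2494, 2865 and 2812 counts in control and 4933, 5108 and 4604 counts in LPS cells. All LPS libraries were above all control libraries. The level rose from 153 ± 8.54 to 301 ± 18.3 CPM, a log2 fold change of 0.98 (SE 0.05, edgeR adjusted p = 2.41e-09) or 1.97-fold.

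Apobec3 (ENSMUSG00000009585, chr15:79891659-79915906, plus strand) encodes a cytidine deaminase that edits retroviral DNA. Counts of 428, 461 and 561 in control and 503, 572 and 509 in LPS libraries overlapped before scaling. In CPM the values were 25.0, 26.1 and 30.1 in control and 31.9, 34.8 and 31.0 in LPS cells, so that the highest control lay just under the lowest LPS library. The log2 fold change was 0.26 (SE 0.09, edgeR adjusted p = 0.0272). With library totals alone, and no TMM factors, control replicate 3 (31.2 CPM) lay above LPS replicate 1 (30.7 CPM) and LPS replicate 3, and the log2 fold change of 0.17 was not called (edgeR adjusted p = 0.144). The call was also lost with DESeq2 (adjusted p = 0.0626) and in edgeR without control replicate 1 (adjusted p = 0.109), control replicate 2 (adjusted p = 0.0958) or LPS replicate 2 (adjusted p = 0.123). Apobec3 overlaps Cbx7 on the opposite strand (118 counts per library on average), and the use of strand in counting is not given in the sources used here.

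Ifitm3 (ENSMUSG00000025492, chr7:141009586-141010770, minus strand) had 180, 220 and 215 counts in control and 370, 437 and 414 in LPS libraries. The groups were clear of each other. It rose from 11.5 ± 0.981 to 25.1 ± 1.6 CPM, a log2 fold change of 1.12 (SE 0.10, edgeR adjusted p = 3.72e-07) or 2.18-fold.

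Ifitm2 (ENSMUSG00000060591, chr7:140954837-140955987, minus strand) had 967, 1200 and 1092 counts in control and 1121, 1058 and 1143 counts in LPS libraries. Ifitm2 overlaps Gm45717 on the same strand (0 counts per library on average). How reads in the shared stretch were counted is not given in the sources used here. For Ifitm2, control replicate 2, at 68.0 CPM, lay inside the LPS range of 64.5 to 71.0 CPM. The means were 61 ± 6.12 and 68.3 ± 3.43 CPM, and the log2 fold change of 0.16 (SE 0.07, 95% interval 0.02 to 0.31) was not called in edgeR (adjusted p = 0.0845). It was called without control replicate 2 (log2 fold change 0.24, adjusted p = 0.00999) and without control replicates 2 and 3 (0.28, adjusted p = 0.0264).

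The IFITM genes share a cluster on chromosome 7, with 53.6 kb between Ifitm2 and Ifitm3. Their log2 ratio of counts was 2.42, 2.45 and 2.34 in control and 1.60, 1.28 and 1.46 in LPS libraries, lower by 0.96 on average with no overlap (exact two-sided permutation p = 0.1, the smallest possible). Ifitm2 thus remained the more counted of the pair in each library, by less in LPS. Ifitm6, 4.93 kb from Ifitm3, was the only other IFITM gene of 5 listed that could be tested, and its log2 fold change was -0.30 (SE 0.15, edgeR adjusted p = 0.133). Of 15 tested genes within 200 kb of Ifitm3, 3 were higher at an adjusted p under 0.05, namely Ric8a (log2 fold change 0.24), Pkp3 (3.15 from a mean of 8 counts) and Rnh1 (0.11).

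**Figure D3:**
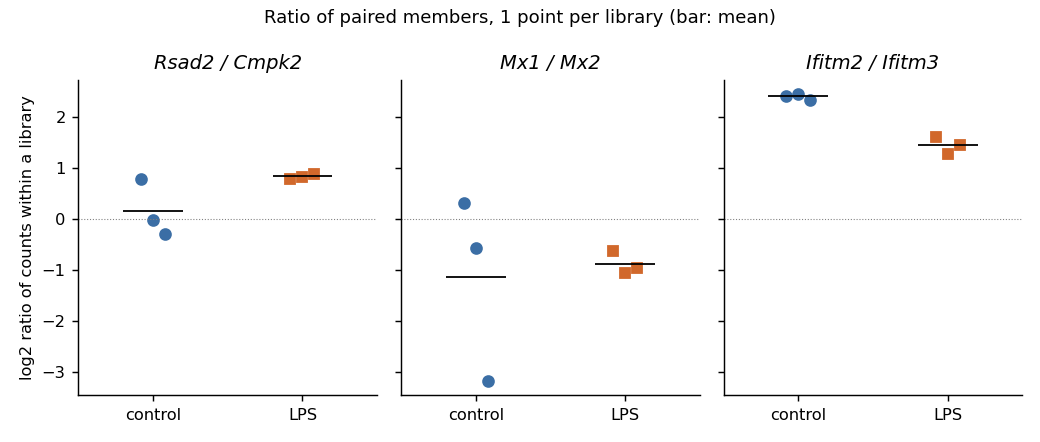
Log2 ratio of the counts of paired members within each library, with circles for control, squares for LPS and bars for means. Ratios of Ifitm2 to Ifitm3 are 2.34 to 2.45 in control and 1.28 to 1.60 in LPS libraries, and those of Mx1 to Mx2 overlap.

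Levels of different genes were compared as CPM per kilobase of the exon length in the count table. In control cells the order was Ifitm2 (93.2 ± 9.38), Bst2 (76.7 ± 4.52), Ifitm3 (17 ± 1.48), Samhd1 (16.7 ± 0.942), Apobec3 (2.86 ± 0.284), Rsad2 (1.59 ± 0.276), Cmpk2 (1.5 ± 0.361), Isg20 (0.376 ± 0.151), Mx2 (0.0867 ± 0.0543) and Mx1 (0.0404 ± 0.0328). The libraries overlapped between Ifitm3 and Samhd1, between Rsad2 and Cmpk2, and between Mx2 and Mx1, so those neighbours were not separated at this length. In LPS cells Rsad2 came first (268 ± 18.3), followed by Bst2 (179 ± 1.69), Cmpk2 (157 ± 14.1), Ifitm2 (104 ± 5.2), Ifitm3 (37 ± 2.37), Samhd1 (32.9 ± 1.99), Isg20 (10.3 ± 1.01), Mx2 (5.87 ± 0.299), Apobec3 (3.44 ± 0.21) and Mx1 (3.03 ± 0.374), where only the last pair overlapped. Viperin thus came first in LPS cells, from a level in control cells that was below that of Apobec3 and not separated from that of Cmpk2. With the longest protein-coding transcript as the length, Samhd1 lay above Ifitm3 without overlap, at 38.9 against 17 in control and 76.7 against 37 in LPS cells. Apobec3 in LPS cells was then at 11.8, above Mx2 (8.77) and clear of Mx1 (3.39), Bst2 and Cmpk2 overlapped there (202 to 206 and 182 to 214), and Rsad2 stayed first at 307. The members' share of all counts was 0.0336% to 0.0362% in control libraries and 0.22% to 0.247% in LPS libraries.

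**Figure D4:**
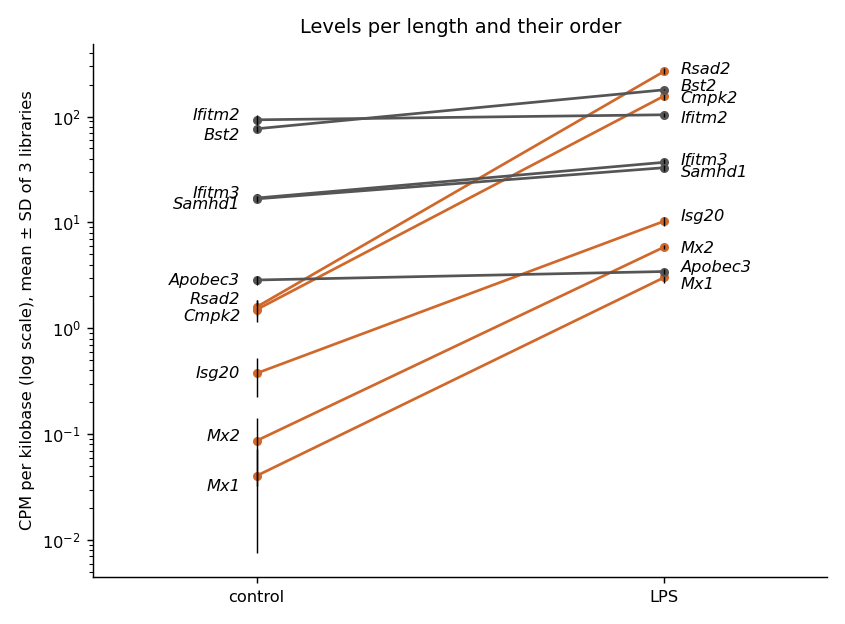
Mean CPM per kilobase of exon length on a log axis in control and LPS cells, with lines joining each gene, bars for SD over 3 libraries and orange for the 5 DEG. Rsad2 and Cmpk2 cross above Ifitm2, and Mx1 stays last in both groups.

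The transcripts of the interferon route around the members moved unevenly. Ifnb1, the interferon beta gene, had 0 counts in each control library and 1, 1 and 0 counts in the LPS libraries, and Ifna4 had 0 in all 6 libraries, so neither could be tested. The receptor subunits Ifnar1 (log2 fold change 0.15, SE 0.06) and Ifnar2 (0.09, SE 0.07) were not called, whereas Jak1 (0.22, SE 0.04) and Tyk2 (0.92, SE 0.06) were higher. Of 8 tested genes in this list of interferon ligands, receptor and ISGF3 genes, 6 were higher at an adjusted p under 0.05. With robust dispersion, the replicate block or LPS replicate 1 left out, 7 were higher, so a receptor subunit was then called. Irf9, which codes for a subunit of ISGF3, was a DEG with a log2 fold change of 2.08 (SE 0.07), and Irf7, a factor that drives interferon genes, was a DEG with 3.97 (SE 0.07). Of 10 genes between LPS and interferon, 6 were higher, 1 was lower (Tlr4, -0.52, SE 0.06) and 1 was a DEG (Ikbke), with a median of 0.32.

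The other interferon-induced antiviral effectors, which include the IFIT, OAS and GBP families, spanned log2 fold changes of 0.48 to 7.21. All 24 listed genes were tested, and 24 were higher, against 18.7% of all tested genes. As DEG that rose there were 19, against 2.4% of all tested genes, and the median log2 fold change was 3.50. The list was chosen with earlier results of these data known. Ifit1, Ifit2, Ifit3 and Isg15 had log2 fold changes of 7.07 (SE 0.11), 4.59 (SE 0.06), 7.21 (SE 0.11) and 6.43 (SE 0.10). These genes code for RNA-binding proteins that block viral translation and for a ubiquitin-like modifier.

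Of 16 enzymes of the dNTP and nucleotide pool, a list that includes Cmpk2 and Samhd1, 5 were higher and 5 lower at an adjusted p under 0.05 in edgeR, and 4 were higher and 6 lower in DESeq2. Cmpk2 was the only DEG in either, and the edgeR median was -0.05. Cmpk1, the cytosolic relative of Cmpk2, had a log2 fold change of -0.14 (SE 0.05) that was at the threshold, with an adjusted p of 0.0504 in edgeR and 0.0425 in DESeq2, and the lower genes included thymidine kinase Tk1 (-1.02, SE 0.06) and the ribonucleotide reductase subunit Rrm2 (-0.52, SE 0.04), enzymes that supply dNTP in dividing cells. Of 7 tested nucleases, relatives or partners in function of Isg20, 2 were higher and 2 lower at an adjusted p under 0.05 in edgeR and in DESeq2, with 0 DEG in either and a median of -0.03. Without control replicates 2 and 3, 0 nucleases were higher, and with library totals alone 1 was higher, as were 3 enzymes of the nucleotide pool. Of 6 tested dynamin-family genes other than Mx, 0 had an adjusted p under 0.05 in edgeR and 0 in DESeq2, 1 had an unadjusted p under 0.05 in each, and the median was -0.03.

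**Figure D5:**
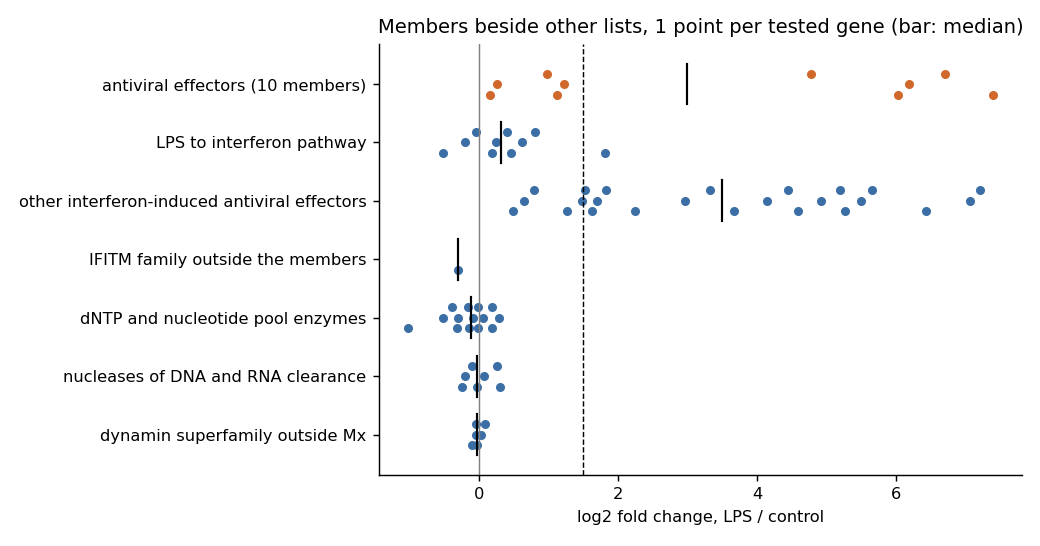
Log2 fold change of each tested gene in the lists, with orange for the 10 members, blue for other genes, bars for medians and a dashed line at 1.5. Members are left out of the other lists, the interferon-induced effectors reach 7.21, and dynamins lie near 0.

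Over the 6 libraries, the gene whose centred log2 CPM profile was nearest to that of Rsad2 among 11591 candidates was Ifit3b, with a root mean square difference of 0.115, followed by Ifit3 (0.189) and Cxcl10 (0.226). Nearest to Cmpk2 was Nos2 (0.152), to Mx1 Usp18 (0.163), to Mx2 Ifit1bl2 (0.209) and to Isg20 Slfn8 (0.265). Of the members with smaller changes, Bst2 was nearest to Sqstm1 (0.028), Samhd1 to Usb1 (0.036), Ifitm2 to Rbm27 (0.038), Apobec3 to Ddx31 (0.048) and Ifitm3 to Ripk2 (0.065). A small constant added to CPM before the logarithm shrinks differences of genes near 0 in control cells, so near profiles are not equal fold changes: Nos2, at 0.0736 CPM in control cells, had an edgeR log2 fold change of 7.94 against 6.70 for Cmpk2.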

How the data were processed

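RNA from N9 microglia, 3 control and 3 LPS samples grouped by their labels, was sequenced for the authors by Novogene. The authors deposited a table of raw read counts, 1 line for each of 54532 genes. The submitters' processing notes name featureCounts 1.5.0-p3 and mm10. The aligner, annotation release and use of strand are not given in the sources used here. The deposited table of the authors' own DESeq2 comparison, which holds fold changes and p-values, was not used.

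From the counts, edgeR 4.0.16 under R 4.3.3 fitted a quasi-likelihood model by group with TMM normalization, filterByExpr and a prior count of 0.125, and p-values were Benjamini-Hochberg adjusted over 12296 genes. A standard error is the size of the log2 fold change divided by the square root of F. CPM divide counts by the library total and its TMM factor. Ratios used counts plus 0.125 and scipy 1.17.1, and profiles used log2 of CPM plus 0.125. Promoters came from RefSeq (GRCm38.p6), and the kappa B search used its standard degenerate motif. On simulated counts edgeR recovered 200 of 200 changed genes with a log2 fold of 2. That fold is above the DEG threshold, so the simulation cannot speak for changes as small as those of Apobec3 and Ifitm2. Recovery was not tested separately for genes with few control counts, such as Mx1, Mx2 and Isg20. Reads are not independent molecules, so the floor of 3 counts covers counting error only.

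Some genes are not reported here. The members and lists were chosen with earlier results of these data known. Genes are named as members, as at most 4 tested genes of a pathway list in its written order that a result turns on, and as nearest profiles. Neighbours within 200 kb, the cell type markers, Ifnb1, Ifna4, Irf9, Irf7, Ikbke, Tk1 and Rrm2 fall outside this rule and were named after their values were seen. Alternatives were DESeq2 1.42.0, RLE size factors, no filter on low counts, a mean of at least 10 counts, glmTreat, robust dispersion, a prior count of 2, a replicate block, other lengths, a ratio pseudocount of 0.5 and each library left out. Leaving out control replicates 2 and 3 together and scaling by library totals alone were chosen after seeing the data.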

Additional observations from a re-analysis of the deposited data

How the results depend on the processing

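The count of 5 members called DEG was 5 under every alternative run: DESeq2, RLE size factors, no filter on low counts, a mean of at least 10 counts, glmTreat, robust dispersion, a prior count of 2, a replicate block, each library left out, library totals alone, and control replicates 2 and 3 left out. Members with an adjusted p under 0.05 numbered 9, and 8 with DESeq2. Leaving out 1 library gave 8 to 9, and leaving out control replicates 2 and 3 gave 10. With these 2 libraries left out, higher nucleases numbered 0 in place of 2, with fewer samples. Library totals alone gave 8 members, 3 in place of 5 higher enzymes of the nucleotide pool and 1 in place of 2 higher nucleases, with a median log2 fold change over all tested genes of -0.095. With the replicate block, 5 members were DEG and 9 had an adjusted p under 0.05. Libraries with the same replicate number had correlations of deviations of 0.131, 0.048 and 0.005. Those with different numbers had -0.121 to 0.077. The main fit did not pair samples by this number, and the labels do not say whether they are paired. With the block 4474 genes had an adjusted p under 0.05, against 4221 without it. Apobec3 had an adjusted p under 0.05 in 3 of 6 fits with a library left out and Ifitm2 in 1 of 6, and the cause was not tested. Leaving out 1 library moved the ratio difference of Rsad2 to Cmpk2 between 0.45 and 0.99, that of Mx1 to Mx2 between -0.77 and 0.97, and that of Ifitm2 to Ifitm3 between -1.04 and -0.87. A lone library left in a group is assumed to vary like the others. Few counts limit Mx1 and Mx2 in control cells.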
